A study of Canis lupus familiaris with 8 samples.

Results

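MT1X, MT1E and MT2A are the 3 metallothionein genes that the study's supplementary gene list pairs with identifiers in the count table, out of 32704 genes counted, and all 3 passed the filter on low counts. They were identified by that pairing. The list holds genes that the study itself selected on these same samples as changed by hyperosmolality and by both Nfat5-siRNAs. The direction of the 3 genes in these comparisons is therefore not independent evidence. The study describes the list as genes raised by hyperosmolality and lowered by both Nfat5-siRNAs. HMOX1, SLC39A4 and PER1, which take their symbols from the list, did not follow that description in these libraries, as given below. RNA was sequenced from MDCK I cells, a dog kidney epithelial cell line grown as tight monolayers, in 4 groups of 2 libraries each, and all cells were transfected with 100 nM siRNA. The Neg-siRNA, which is directed at Slc22a6, was used at 300 mOsm (isosmotic medium) and at 500 mOsm (medium made hyperosmotic with raffinose for 24 h), and Nfat5-1-siRNA and Nfat5-2-siRNA, which target the osmosensitive transcription factor Nfat5 with different sequences, were used at 500 mOsm only. The Neg-siRNA groups are called the isosmotic (300 mOsm) and hyperosmotic (500 mOsm) controls here. No group without transfection and no Nfat5-siRNA group at 300 mOsm was among these libraries, so an effect of the Nfat5-siRNAs on isosmotic expression was not measured. Replicates 1 and 2 of each group came from cell passages 15 and 17 of the same cell line, and the libraries held between 34564103 and 46043788 counts.

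Metallothioneins are small, cysteine-rich proteins that bind zinc, copper and cadmium ions and so buffer the free zinc and copper of the cell. Their genes lie in a cluster and are switched on by metals through the zinc-sensing factor MTF1, and also by glucocorticoids and oxidants. In the kidney tubule they are known for holding cadmium and for protecting the epithelium against metal and oxidant injury. MT1X and MT1E belong to the MT-1 group and MT2A is the MT-2 form, which is widely expressed. Nfat5 is the factor through which hypertonic kidney cells raise the transporters and enzymes that accumulate organic osmolytes.

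In the CanFam 3.1 build with the Ensembl 92 annotation used for the counts, MT1X (ENSCAFG00000009113) lies on the reverse strand of chromosome 2, chr2:59602961-59604676, with 3 exons and 1032 exonic bases. MT2A (ENSCAFG00000023759) lies on the same strand at chr2:59607926-59608825, with 3 exons and 414 exonic bases, and 3249 bases separate the 2 genes. MT1E (ENSCAFG00000009110) is not placed on chromosome 2 in this build. It lies on an unplaced scaffold, from base 470 to base 1326 on the forward strand, as the only gene counted there, and its model is short, with 2 exons and 195 exonic bases. No other gene of the count table overlaps any of the 3. RefSeq's annotation of a newer dog assembly (UU_Cfam_GSD_1.0) has a single gene named MT1E in the cluster, with MT1X among its synonyms and no separate MT1X entry. It also lists a protein-coding gene without a name, LOC100686073, beside MT1E on the side of NUP93. Whether MT1X and MT1E stand for 2 separate genes in the dog was not settled by these annotations. Reads from near-identical members of the family could have been split between them or lost in the counting, and the split between MT1X and MT1E is therefore uncertain.

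MT1X was low in isosmotic cells and high in all 6 libraries from hyperosmotic cells. It had 44.2 and 66.8 CPM (counts per 1000000 counts of the TMM-scaled library) in replicates 1 and 2 of the isosmotic controls, 1585 and 1865 CPM in hyperosmotic controls, 963 and 747 CPM under Nfat5-1-siRNA and 486 and 516 CPM under Nfat5-2-siRNA. No values of the 4 groups overlapped, and the hyperosmotic controls were highest, followed by Nfat5-1-siRNA, Nfat5-2-siRNA and the isosmotic controls. Fewer cells with the transcript and less transcript per cell cannot be told apart in these bulk libraries. MT2A stood in the same order, at 43.6 and 61.6 CPM, 819 and 900 CPM, 535 and 393 CPM, and 320 and 335 CPM in those groups. MT1E, whose annotated exons are short, had fewer counts, at 6.70 and 8.79 CPM, 133 and 189 CPM, 87.5 and 87.7 CPM, and 44.9 and 55.5 CPM. For MT2A and MT1E too, none of the 4 groups overlapped. The share of all genes tested that separate the 4 groups in this way was not counted, so the separation is a description only. In group means (± SD, n = 2), MT1X had 55.5 ± 16.0, 1725 ± 198, 855 ± 153 and 501 ± 21.1 CPM.

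**Figure D1:**
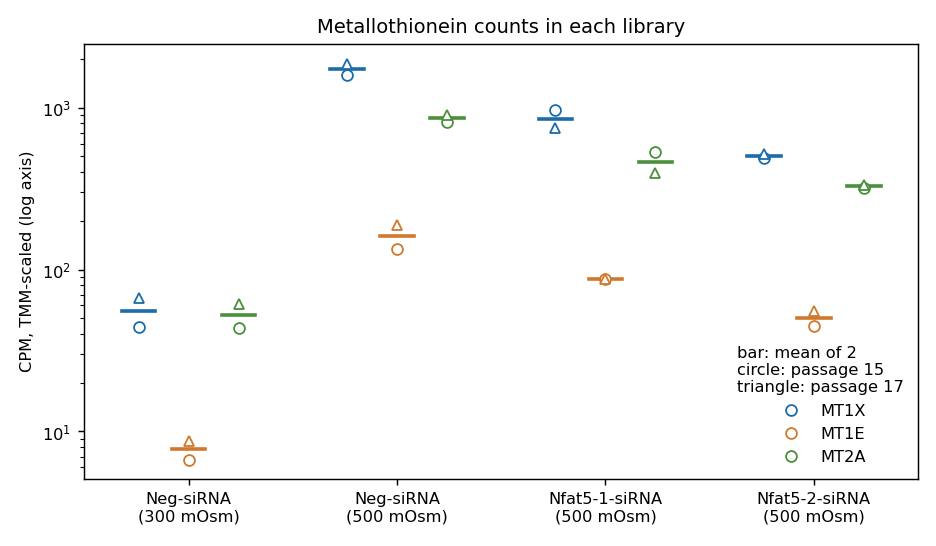
CPM of MT1X, MT1E and MT2A in each of the 8 libraries, on a log axis, by group. Circles are replicate 1 (passage 15), triangles are replicate 2 (passage 17) and bars are the means of the 2. All 3 genes are lowest in isosmotic controls, highest in hyperosmotic controls and between these in the Nfat5-siRNA groups.

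Together the 3 genes held 4201 and 4634 counts in the isosmotic libraries, or 0.00944% and 0.0134% of all counts, and 93507 and 118003 counts, or 0.224% and 0.268%, in hyperosmotic controls. The Nfat5-siRNA libraries lay between these, with 0.160% and 0.128% for Nfat5-1-siRNA and 0.0954% and 0.0980% for Nfat5-2-siRNA. Per exonic length, MT2A was the most abundant of the 3 in every group mean, at 127, 2076, 1121 and 791 RPKM (CPM per kilobase of exon) in isosmotic controls, the hyperosmotic controls, Nfat5-1-siRNA and Nfat5-2-siRNA. MT1X followed at 53.8, 1671, 829 and 486 RPKM, and MT1E at 39.7, 827, 449 and 257 RPKM, although the MT1E values rest on the short scaffold model. The order of MT2A and MT1X depends on their annotated lengths, 414 and 1032 exonic bases. By counts MT1X was above MT2A in every library, with 1.01 to 2.07 counts for each MT2A count. By group-mean RPKM, MT2A ranked 720 among the counted genes in isosmotic cells and 26 in hyperosmotic control cells, and MT1X ranked 1867 and 39.

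The first comparison asked what hyperosmolality changed in cells that received the Neg-siRNA. All 3 metallothioneins rose, MT1X by 31.1-fold, MT1E by 20.9-fold and MT2A by 16.4-fold. The log2 fold changes were 4.96 for MT1X (SE 0.24, adjusted p = 2.52e-07), 4.38 for MT1E (SE 0.22, adjusted p = 3.62e-07) and 4.03 for MT2A (SE 0.21, adjusted p = 4.94e-07). The p-values are from the quasi-likelihood test of edgeR with Benjamini-Yekutieli adjustment over 19835 genes. Among all genes tested, 11.3% were called higher in this comparison. Among all genes tested, the rise of MT1X ranked 562 from the highest, that of MT1E 860 and that of MT2A 1076. Among the 9203 genes averaging 10 CPM or more the ranks were 28, 46 and 57, and MT1E reached that average only through the libraries at 500 mOsm. Within passage 15 the log2 ratio of CPM was 5.17 for MT1X, 4.31 for MT1E and 4.23 for MT2A, and within passage 17 it was 4.80, 4.43 and 3.87. The rise was present in both passages for each gene, and it was smaller in passage 17 for MT1X and MT2A.

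The next comparisons asked how far the metallothioneins fell when Nfat5 was targeted in hyperosmotic cells. With Nfat5-2-siRNA all 3 fell, MT1X by 3.44 times, MT1E by 3.21 times and MT2A by 2.62 times. The log2 fold changes against the hyperosmotic controls were −1.78 for MT1X (SE 0.21, adjusted p = 0.000592), −1.68 for MT1E (SE 0.19, adjusted p = 0.000564) and −1.39 for MT2A (SE 0.19, adjusted p = 0.00208) by edgeR's quasi-likelihood test. In this comparison 7.38% of all genes tested were called lower.

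With Nfat5-1-siRNA only MT1X passed the threshold, and the values of the other 2 genes lay just outside it. MT1X fell by 2.02 times (log2 fold change −1.01, SE 0.20, adjusted p = 0.0359, edgeR), against 4.53% of all genes tested that were called lower. MT1E was 1.84 times lower (−0.88, SE 0.19, adjusted p = 0.0551) and MT2A 1.85 times lower (−0.89, SE 0.19, adjusted p = 0.0542). With the passage as a replicate block in edgeR, all 3 passed (adjusted p = 1.88e-08 for MT1X, 5.68e-07 for MT1E and 5.32e-07 for MT2A), where 11.9% of all genes were called lower. Leaving out any 1 of the 6 libraries at 500 mOsm ended the MT1X call in the fit without the block, with an adjusted p from edgeR between 0.0562 and 0.813, and so did edgeR's filterByExpr (0.0749). Passage 17 showed the larger drop, at −1.32, −1.11 and −1.20 in log2 CPM for MT1X, MT1E and MT2A, against −0.72, −0.61 and −0.61 in passage 15. The Nfat5-1-siRNA and Nfat5-2-siRNA comparisons share their control libraries.

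All 3 metallothioneins were lower with Nfat5-2-siRNA than with Nfat5-1-siRNA in both passages. The log2 difference was −0.77 for MT1X (95% interval −1.21 to −0.34, adjusted p = 0.960), −0.80 for MT1E (−1.21 to −0.39, adjusted p = 0.726) and −0.50 for MT2A (−0.91 to −0.09, adjusted p = 1) by edgeR's quasi-likelihood test, none past the threshold. This comparison called 0.0101% of all genes tested lower. With the replicate block, MT1X (adjusted p = 0.000109) and MT1E (adjusted p = 1.57e-05) passed and MT2A did not (adjusted p = 0.0611), and 2.55% of all genes were called lower by edgeR.

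Neither siRNA brought the metallothioneins back to the isosmotic level. Against the isosmotic controls, MT1X was 15.4-fold higher with Nfat5-1-siRNA and 9.04-fold higher with Nfat5-2-siRNA (edgeR adjusted p = 9.09e-07 and 2.46e-06). MT1E was 11.3-fold and 6.50-fold higher (adjusted p = 1.28e-06 and 5.68e-06, edgeR), and MT2A was 8.83-fold and 6.23-fold higher (adjusted p = 2.14e-06 and 5.68e-06, edgeR). The share of all genes tested that were called higher was 13.2% with Nfat5-1-siRNA and 12.7% with Nfat5-2-siRNA. Of the log2 rise of MT1X, MT1E and MT2A, 79.6%, 79.9% and 78.0% was left with Nfat5-1-siRNA, and 64.0%, 61.6% and 65.5% with Nfat5-2-siRNA. These shares lie close together for the 3 genes, although the rises themselves differed in size. Shares of a log2 rise are not shares of the transcript gained. For MT1X the group means were 55.5 CPM in isosmotic controls, 1725 in hyperosmotic controls, 855 with Nfat5-1-siRNA and 501 with Nfat5-2-siRNA.

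**Figure D2:**
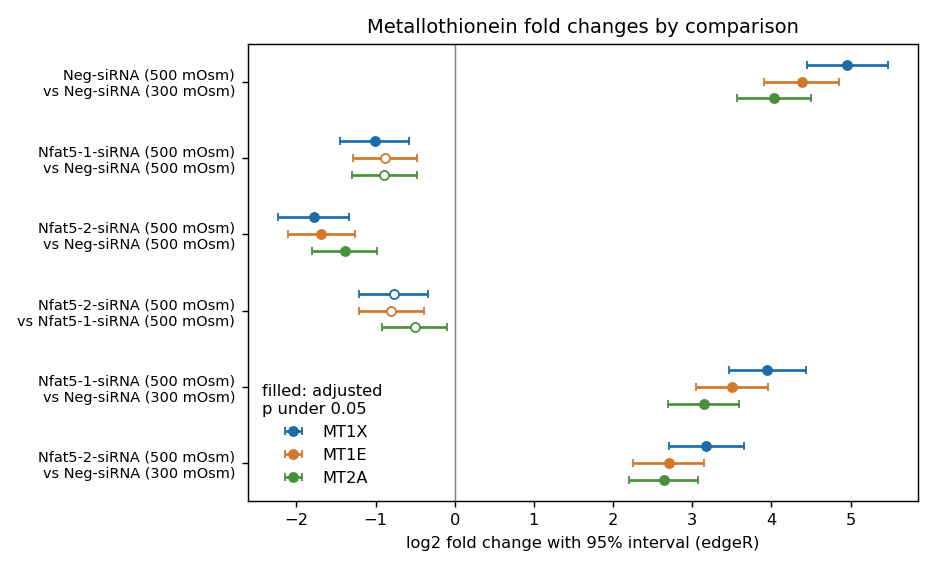
Log2 fold changes of MT1X, MT1E and MT2A in 6 comparisons between the groups, with 95% intervals from edgeR. Filled points passed the threshold of 0.05 on the adjusted p. The rises lie between 2.64 and 4.96, and the differences between the Nfat5-siRNA groups and the hyperosmotic controls between −1.78 and −0.88.

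The 3 genes moved closely together across the libraries but not in equal proportion. Over the 8 libraries, Pearson's r between log2 CPM values was 0.996 for MT1X and MT1E, 0.999 for MT1X and MT2A and 0.993 for MT1E and MT2A, as a description of points that share groups and libraries. For each MT2A count, MT1X had 1.01 and 1.09 counts in isosmotic controls, 1.94 and 2.07 in hyperosmotic controls, 1.80 and 1.90 in Nfat5-1-siRNA and 1.52 and 1.54 in Nfat5-2-siRNA. This ratio is taken within a library and does not depend on its depth or scaling. It was lowest in the isosmotic libraries and fell in the same order as the level, with no overlap between the 4 groups. These differences in the ratio were not tested with a fitted model. An exact permutation test (two-sided) of 2 libraries against 2 that ignores the passages cannot go below p = 0.333. Per exonic base, MT1X remained below MT2A throughout, with ratios of 0.406 and 0.435 in isosmotic cells and 0.776 and 0.831 in hyperosmotic controls.

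MT1X made up 46.7% and 48.7% of the counts of the 3 genes in the isosmotic libraries and 62.5% and 63.1% in hyperosmotic controls. With Nfat5-1-siRNA its share was 60.7% and 60.8%, and with Nfat5-2-siRNA 57.1% and 56.9%. The ratio of MT1E to MT2A counts behaved otherwise. It was 0.154 and 0.143 in isosmotic cells, 0.162 and 0.210 in hyperosmotic controls, 0.163 and 0.223 with Nfat5-1-siRNA and 0.140 and 0.166 with Nfat5-2-siRNA. Here the groups overlapped, and in all 3 hyperosmotic groups the library of passage 17 had the higher value. The ratio of MT1X to MT2A counts was also higher in passage 17, in every group including the isosmotic controls.

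**Figure D3:**
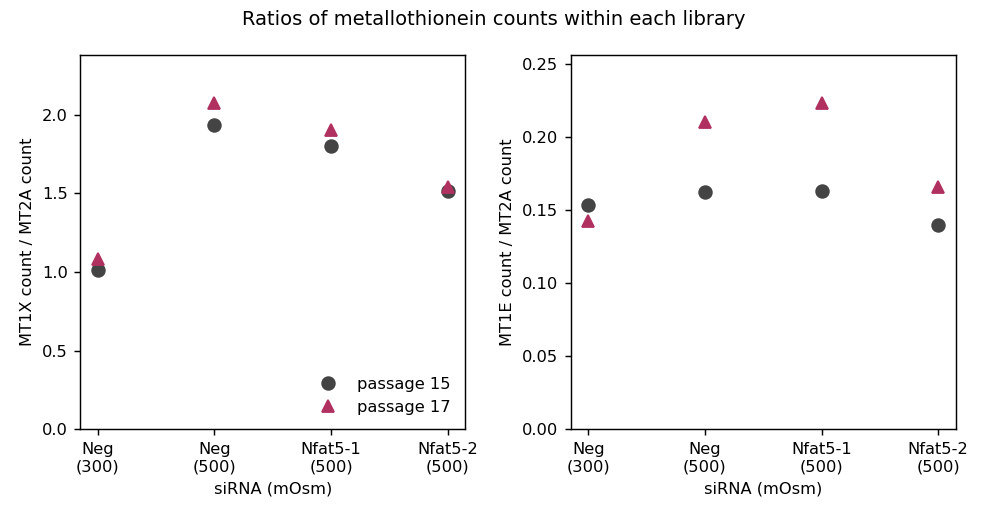
Ratio of MT1X to MT2A counts and of MT1E to MT2A counts within each library, by group, with circles for passage 15 and triangles for passage 17. The MT1X to MT2A ratio separates the 4 groups, from 1.01 in the isosmotic libraries to 2.07 in hyperosmotic controls, whereas the MT1E to MT2A ratios of the groups overlap, from 0.140 to 0.223.

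Apart from MT1X and MT2A, 7 genes were counted within 100 kb of the pair on chromosome 2, and 2 of them were expressed at more than a few counts in every library. NUP93 (ENSCAFG00000009088, chr2:59465643-59574033, reverse strand, 22 exons), which encodes a scaffold protein of the nuclear pore, begins 28927 bases from MT1X. Its level was 78.7 and 72.3 CPM in isosmotic controls, 281 and 219 CPM in hyperosmotic controls, 146 and 96.7 CPM with Nfat5-1-siRNA and 143 and 101 CPM with Nfat5-2-siRNA. The hyperosmotic control libraries were above all others. NUP93 rose by 1.73 on the log2 scale with hyperosmolality (SE 0.22, adjusted p = 0.000455) and fell by 1.04 with Nfat5-1-siRNA (SE 0.21, adjusted p = 0.0436) and by 1.03 with Nfat5-2-siRNA (SE 0.21, adjusted p = 0.0335, all by edgeR). Leaving out any control library or either Nfat5-1-siRNA library ended the first of these siRNA calls (adjusted p from 0.0648 to 0.925 by edgeR), and leaving out any of the 4 control libraries or Nfat5-2-siRNA replicate 2 ended the second (0.0546 to 0.670). Both were also lost with all libraries kept, after edgeR's filterByExpr (adjusted p = 0.0914 and 0.0765) and in a fit of only the 4 libraries compared (0.0760 and 0.125).

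BBS2 (ENSCAFG00000009127, chr2:59674834-59706199, forward strand, 33 exons), which encodes a subunit of the complex that carries membrane proteins into the primary cilium, lies on the other side, 66008 bases from MT2A. It had 76.4 and 79.1 CPM in isosmotic controls, 158 and 180 CPM in hyperosmotic controls, 84.1 and 77.2 CPM with Nfat5-1-siRNA and 58.5 and 60.7 CPM with Nfat5-2-siRNA. Its level with Nfat5-1-siRNA overlapped the isosmotic level, and its level with Nfat5-2-siRNA was below it. BBS2 rose by 1.12 on the log2 scale with hyperosmolality (SE 0.14, adjusted p = 0.000401) and fell by 1.07 with Nfat5-1-siRNA (SE 0.14, adjusted p = 0.00234) and by 1.50 with Nfat5-2-siRNA (SE 0.14, adjusted p = 0.000138, all by edgeR). The call with Nfat5-1-siRNA was lost without hyperosmotic control replicate 2 (adjusted p = 0.0528) or without Nfat5-1-siRNA replicate 2 (adjusted p = 0.123, edgeR).

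Both neighbours changed in the same directions as the metallothioneins, with smaller rises from 300 to 500 mOsm, and under the siRNAs their levels lay closer to the isosmotic level. On the log2 scale, BBS2 differed from the isosmotic controls by 0.05 (95% interval −0.25 to 0.35) under Nfat5-1-siRNA and by −0.38 (−0.68 to −0.08) under Nfat5-2-siRNA, neither past the threshold (edgeR adjusted p = 1 and 0.436). NUP93 was 0.69 higher with either siRNA (adjusted p = 0.210 and 0.196 by edgeR, or 8.71e-05 and 5.50e-05 with the replicate block). The difference between the neighbours and the metallothioneins was not tested. Both neighbours carry a symbol because they are on the study's own list of changed genes, which is not independent evidence of their direction.

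**Figure D4:**
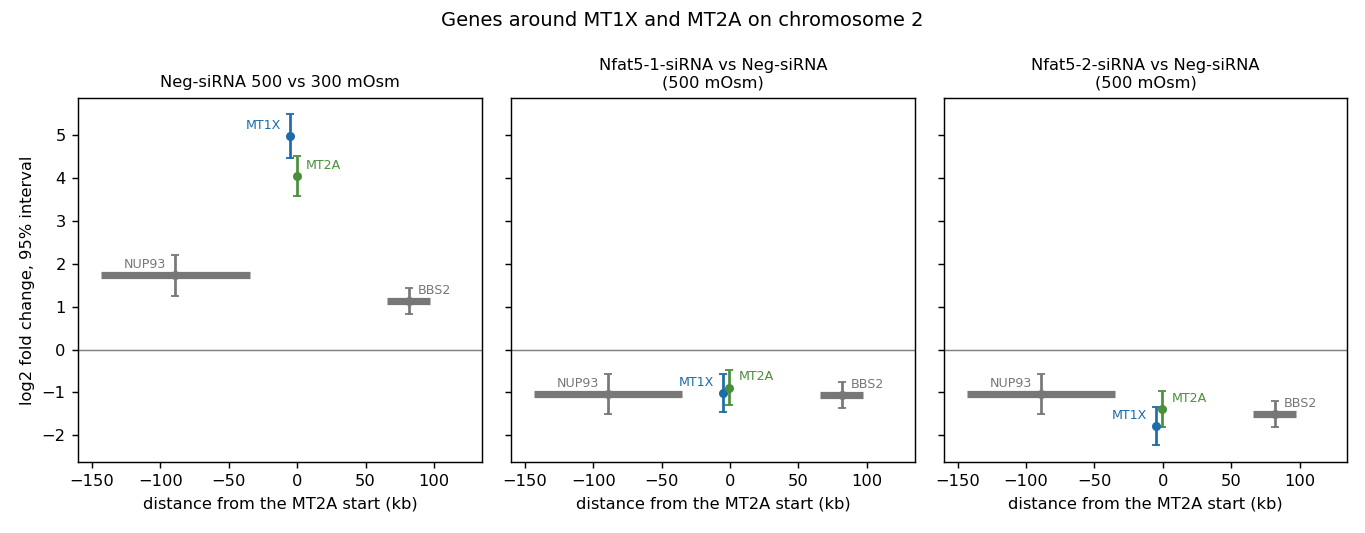
Log2 fold changes with 95% intervals (edgeR) of MT1X, MT2A and their expressed neighbours NUP93 and BBS2, against distance from the start of MT2A in kb. Thick bars span each gene, and genes with few counts are left out. MT1X and MT2A stand above both neighbours in the osmotic comparison, at 4.96 and 4.03 against 1.73 and 1.12, and all 4 lie below 0 in the siRNA comparisons.

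ENSCAFG00000040079, for which the files give no symbol, lies closest to the metallothioneins, on the opposite strand at chr2:59610345-59613185, 1519 bases beyond MT2A. It had few counts, with 2 and 3 counts in isosmotic controls, 33 and 72 in hyperosmotic controls, 11 and 2 with Nfat5-1-siRNA and 16 and 2 with Nfat5-2-siRNA. The summed counts, scaled for library size, were 21.4 times higher in hyperosmotic than in isosmotic Neg-siRNA cells. The 95% exact interval of 8.88 to 67.3 covers counting error only. In edgeR the log2 fold change was 4.32, and it ranged from 3.67 to 4.82 with 1 library left out. It was lowest without hyperosmotic control replicate 2. The edgeR adjusted p was 0.0441, and it rose above 0.05 without any control library or without Nfat5-1-siRNA replicate 1 (0.0532 to 0.499), and after filterByExpr (0.0813). The drop under the siRNAs did not pass (adjusted p = 0.211 and 0.381, edgeR), although it did with the replicate block (0.00215 and 0.0146). Counting did not use the strand, and whether reads from MT2A entered these counts was not tested. The other 4 genes in the window had between 6 and 22 counts summed over the 8 libraries, too few to compare. In the RefSeq order of the newer assembly, the metallothionein genes MT-III and MT4 lie between MT2A and BBS2. The reverse-strand genes counted between MT2A and BBS2 were ENSCAFG00000028459, with 22 counts over the 8 libraries, and ENSCAFG00000009118, with 6, and no file pairs either with a symbol.

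Other genes of the pathways that act on metallothioneins could be followed only where the study's list gives a symbol. A symbol again marks a gene chosen on these libraries as changed. Of 34 genes of zinc and copper handling, among them MTF1 and the zinc transporter families, 1 was paired with an identifier, and of 8 genes for the glucocorticoid receptor and its targets also 1. The zinc importer SLC39A4 (ENSCAFG00000001607) ran opposite to the metallothioneins in level, at 21.9 and 12 CPM in isosmotic controls, 7.98 and 7.61 CPM in hyperosmotic controls, 12.9 and 21.9 CPM with Nfat5-1-siRNA and 14.2 and 19.3 CPM with Nfat5-2-siRNA. The hyperosmotic control libraries were lower than all others. It was 2.18 times lower with hyperosmolality and then 2.23 times higher under Nfat5-1-siRNA and 2.15 times higher under Nfat5-2-siRNA. These differences missed the threshold (edgeR adjusted p = 0.103, 0.159 and 0.158) and passed with the replicate block (6.57e-06, 1.01e-05 and 2.02e-05), with no filter on low counts (0.000545, 0.000725 and 0.00117) and with DESeq2 (0.0117, 0.0130 and 0.0135). Without 1 library at a time, the SLC39A4 difference in log2 ranged from −1.49 to −0.67 with hyperosmolality (edgeR adjusted p = 0.0284 to 1), from 0.72 to 1.49 with Nfat5-1-siRNA (0.0420 to 1) and from 0.87 to 1.31 with Nfat5-2-siRNA (0.0359 to 1). The osmotic difference was smallest without isosmotic replicate 1, and the Nfat5-siRNA differences were smallest without replicate 2 of the Nfat5-siRNA group compared. The glucocorticoid-induced clock gene PER1 (ENSCAFG00000016984) also went the other way, with log2 fold changes of −0.51, 0.60 and 0.53 (SE 0.15). These too missed the threshold (edgeR adjusted p = 0.146, 0.105 and 0.167) and passed with the block (0.0112, 0.00188 and 0.00945) and with DESeq2 (0.0437, 0.0103 and 0.0216).

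Among 10 genes of the oxidant and heat stress responses, 4 had an identifier. They have one because they are on the study's list of genes changed in these libraries, so their counts and medians are a description and are not independent evidence of a direction. All 4 rose with hyperosmolality (11.3% of all genes tested were called higher), with a median log2 fold change of 1.84 against 0.004 for all genes tested. With each Nfat5-siRNA 3 of them fell, where 4.53% and 7.38% of all genes were called lower, and 1 rose, where 3.40% and 4.67% were called higher (medians −0.94 and −1.04, against −0.07 and −0.03 for all genes). HSPH1, a heat shock cochaperone, had 82.3 and 86.4 CPM in isosmotic cells and 2661 and 2300 CPM in hyperosmotic control cells and rose by 4.88 in log2 (SE 0.32, adjusted p = 2.33e-06, edgeR). On the log2 scale it fell by 1.38 under Nfat5-1-siRNA (adjusted p = 0.0379) and fell by 1.51 under Nfat5-2-siRNA (adjusted p = 0.0156, edgeR). After filterByExpr neither passed (adjusted p = 0.0978 and 0.0519, edgeR), and in a fit of only the 4 libraries compared the Nfat5-1-siRNA call was lost as well (0.0571). The quinone reductase NQO1 and the cochaperone DNAJB1 rose by 1.03 and 0.76 on the log2 scale (adjusted p = 0.00170 and 0.00830, edgeR). On the log2 scale NQO1 fell by 1.05 and DNAJB1 fell by 0.83 under Nfat5-1-siRNA, whereas under Nfat5-2-siRNA NQO1 fell by 1.14 and DNAJB1 fell by 0.93. NQO1 then had 420 and 396 CPM with Nfat5-1-siRNA and 422 and 349 CPM with Nfat5-2-siRNA, against 430 and 402 CPM in isosmotic controls. With 1 library left out in turn, the Nfat5-1-siRNA calls of HSPH1, NQO1 and DNAJB1 were lost at worst with an adjusted p of 0.655, 0.181 and 0.360 (edgeR), and each was lost without Nfat5-1-siRNA replicate 2 and without hyperosmotic control replicate 2. The Nfat5-2-siRNA calls of HSPH1 and DNAJB1 were lost without hyperosmotic control replicate 2 or Nfat5-2-siRNA replicate 2 (up to 0.231 and 0.0873), that of HSPH1 also without hyperosmotic control replicate 1, and the osmotic call of DNAJB1 without any of the 4 control libraries (up to 0.152). In a fit of the 4 libraries compared, the Nfat5-2-siRNA call of DNAJB1 was lost too (0.0676).

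HMOX1 (ENSCAFG00000001711), the haem-degrading enzyme that is often induced together with metallothioneins by metals and oxidants, went a different way. It had 8.97 and 7.75 CPM in isosmotic controls, 52.8 and 53.1 CPM in hyperosmotic controls, 290 and 284 CPM with Nfat5-1-siRNA and 169 and 159 CPM with Nfat5-2-siRNA. Its highest libraries were those of the Nfat5-siRNAs, in which the metallothioneins were below the hyperosmotic controls. The log2 fold change of HMOX1 was 2.66 (SE 0.15, adjusted p = 7.15e-07) with hyperosmolality, and on top of that 2.44 (SE 0.14, adjusted p = 1.31e-05) with Nfat5-1-siRNA and 1.63 (SE 0.14, adjusted p = 7.89e-05) with Nfat5-2-siRNA, by edgeR. These calls held with each library left out in turn.

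Of the osmolyte genes known as Nfat5 targets, SLC6A6, SLC6A12, SLC5A3 and AKR1B1, all 4 rose with hyperosmolality (against 11.3% of all genes), with a median log2 fold change of 5.87 against 0.004 for all genes. With Nfat5-1-siRNA 3 of the 4 fell (against 4.53% of all genes), with a median of −1.60 against −0.07. SLC5A3 stood at −1.46 there, with an adjusted p of 0.0716 from edgeR, or 4.28e-07 with the replicate block. With Nfat5-2-siRNA all 4 fell (against 7.38% of all genes), with a median of −1.95 against −0.03. These genes too are on the study's list chosen on these libraries, so neither the counts nor the medians are independent evidence of their direction. The siRNA calls of AKR1B1 held with each library left out, whereas those of the other 3 were each lost without at least 1 of the hyperosmotic control or Nfat5-siRNA libraries compared (adjusted p up to 0.336, edgeR). The files do not pair Nfat5 with an identifier. The counted gene next to NQO1, ENSCAFG00000020254, stands where RefSeq places NFAT5. It had 21.8 and 23.6 CPM in isosmotic controls, 85.9 and 78.5 CPM in hyperosmotic controls, 104 and 88.1 CPM with Nfat5-1-siRNA and 72.2 and 73.5 CPM with Nfat5-2-siRNA. Its log2 fold change was 1.85 with hyperosmolality (SE 0.15, adjusted p = 1.07e-05), and 0.22 with Nfat5-1-siRNA and −0.17 with Nfat5-2-siRNA (adjusted p = 1 for both, edgeR). The siRNA labels of the libraries are therefore not checked by these transcript levels, and Nfat5 protein is not measured by RNA sequencing.

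The genes whose log2 CPM followed the mean of the 3 metallothioneins most closely over the 8 libraries, among 9200 other genes averaging 10 CPM or more, were sought as a description. Among genes with a symbol, these were MRPS6 (r = 0.992), which encodes a mitochondrial ribosomal protein, IQCJ-SCHIP1 (r = 0.991), PIR (r = 0.991), which encodes the iron-binding protein pirin, BFSP1 (r = 0.991), which encodes a lens filament protein, and DSC3 (r = 0.989), a desmosomal cadherin. In all, 15 genes reached at least the r of DSC3. MRPS6 ranked 5 by r, and the genes above it have no symbol. Symbols exist here only for genes on the study's list chosen on these libraries, so the 5 genes named are not independent evidence. MRPS6 had mean levels of 11.7, 293, 116 and 102 CPM in isosmotic controls, the hyperosmotic controls, Nfat5-1-siRNA and Nfat5-2-siRNA. DSC3 had 83.3, 481, 286 and 247 CPM. BFSP1, at 0.939, 25.8, 9.93 and 6.54 CPM, met the average of 10 CPM only through the hyperosmotic controls. IQCJ-SCHIP1, at 9.16, 82.5, 41.0 and 36.9 CPM, had an isosmotic mean under 10 CPM as well. Within each passage, over 4 libraries, r was at least 0.983 for all 5, and since each profile is set mainly by the rise at 500 mOsm, a high r says little about the siRNA groups.

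None of the 22 epithelial, kidney tubule, fibroblast, leukocyte and endothelial marker genes listed for a check of the cell type was paired with an identifier, and the labelled cell line was not checked against markers. Sequences of the 3 genes were not used here.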

How the data were processed

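The authors aligned the reads with HISAT2 (2.0.5) to CanFam 3.1 and counted them per gene with featureCounts (1.5.1) and the Ensembl 92 annotation. The deposited table holds raw counts per gene and library, with exonic lengths. Per the file headers, counting ignored strand (option 0) and the command set no option for reads with several alignments. The 19835 of 32704 genes whose counts summed to 5 or more across all 8 libraries were tested in 1 fit of the 4 groups with edgeR (4.0.16, R 4.3.3), using TMM factors (0.883 to 1.121), the quasi-likelihood test (two-sided) and Benjamini-Yekutieli adjustment over all tested genes, with a threshold of 0.05. Log2 CPM for correlations used a prior count of 2. DESeq2 (1.42.0), other filters and scalings, and refits without each library were alternatives.

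Labels give passage 15 for replicate 1 and passage 17 for replicate 2 of every group, so the numbers pair the libraries. Over 12424 genes, the differences between replicates correlated between groups at r = 0.123 to 0.465 in all 6 pairs of groups, and the fit with the replicate block is given where it changed a call. P-values of the fit without the block measure the spread between passages of 1 cell line. Those with the block measure what is left of that spread after a difference between passages shared by the groups is taken out. In both fits edgeR draws the variance of each gene towards that of the other genes. A very small p with the block therefore does not rest on the 2 passages of that gene alone. No 2 libraries were identical.

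Gene symbols came from the study's supplementary list, which pairs 860 symbols with identifiers, and the authors' own fold changes there were not used. RefSeq (UU_Cfam_GSD_1.0) served for names and gene order only. The members, the gene lists, the window of 100 kb and the 5 genes most like the members were chosen by rule, with earlier results of these data known. ENSCAFG00000040079 and the other genes of the window follow from that rule.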

Additional observations from a re-analysis of the deposited data

How the results depend on the processing

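The direction of the 3 metallothioneins was the same in every alternative run. The alternatives other than those without a library gave 126 calls over the genes, comparisons and settings, and 113 of these were unchanged. Many of these calls come from the same fit. MT1X with Nfat5-1-siRNA missed the threshold after edgeR's filterByExpr (log2 fold change −1.03, adjusted p = 0.0749). MT1E and MT2A with Nfat5-1-siRNA passed with the replicate block (−0.86 and −0.88), with no filter on low counts (−0.88 and −0.89), with DESeq2 (−0.86 and −0.87) and with Benjamini-Hochberg adjustment (−0.88 and −0.89). MT1X and MT1E differed between the 2 Nfat5-siRNAs with the replicate block (−0.78 and −0.82) and with no filter (−0.77 and −0.80). The cause was not tested. The block changed no other call of the 3 genes.

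Without 1 library in turn, the osmotic rise ranged from 4.64 to 5.29 for MT1X, 4.05 to 4.59 for MT1E and 3.76 to 4.30 for MT2A. The change with Nfat5-1-siRNA ranged from −1.21 to −0.83 (adjusted p = 0.0193 to 0.813, edgeR), −1.05 to −0.55 and −1.13 to −0.68, and that with Nfat5-2-siRNA from −1.83 to −1.57, −1.85 to −1.31 and −1.42 to −1.23. MT1E and MT2A with Nfat5-1-siRNA passed in edgeR without Neg-siRNA (500 mOsm) replicate 1 (adjusted p = 0.0457, MT1E) and without either isosmotic library (0.0427 and 0.0396, MT2A). The difference between the siRNAs ranged from −0.94 to −0.58, −0.97 to −0.66 and −0.71 to −0.26. Above the isosmotic level, the ranges were 3.69 to 4.28, 3.33 to 3.71 and 2.90 to 3.41 with Nfat5-1-siRNA and 2.96 to 3.50, 2.54 to 2.90 and 2.46 to 2.91 with Nfat5-2-siRNA. The 3 genes joined as 1 ranged in these comparisons from 4.28 to 4.86, −1.16 to −0.79, −1.69 to −1.43, −0.85 to −0.48, 3.37 to 3.90 and 2.73 to 3.22. BBS2 with Nfat5-1-siRNA against Neg-siRNA (300 mOsm), 0.05 with all libraries, turned to −0.00965 without Nfat5-1-siRNA replicate 1, with a highest value of 0.114.

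The number of genes called depended more on the setting. For hyperosmolality it was 4077, or 6565 with the replicate block, 7033 with Benjamini-Hochberg adjustment and 2415 to 4215 without 1 library. For Nfat5-1-siRNA it was 1572, or 4264 with the block, 2866 with no filter, 2682 with DESeq2, 4033 with Benjamini-Hochberg and 166 to 1695 without 1 library. For Nfat5-2-siRNA it was 2390, or 5168, 3760 with no filter, 5250 with Benjamini-Hochberg, 1165 in a fit of the 4 libraries compared and 957 to 2380. Between the siRNAs it was 8, or 979 with the block, 34 with DESeq2 size factors, 337 with no filter, 213 with DESeq2, 186 with Benjamini-Hochberg and 0 to 42 without 1 library. EdgeR called 0 there after filterByExpr and in the fit of 4 libraries, where 2737 and 2625 genes had an unadjusted p under 0.05. Against Neg-siRNA (300 mOsm) it was 5034 for Nfat5-1-siRNA (7979 with Benjamini-Hochberg, 2586 to 5157) and 5084 for Nfat5-2-siRNA (8138, 2217 in the fit of 4 libraries, 3374 to 4957).

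With 2 libraries a group, a value of p near the threshold cannot settle a call. Scaling moved the median of all genes by less than 0.1 on the log2 scale.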
